A study of Mus musculus with 32 samples.

Results

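Livers that lacked Rps6 were compared between 30 and 40 h after partial hepatectomy. No probe set passed the test for a change in signal in the fit with all arrays. That count was 434 without liver A of 30 h and liver D of 40 h, and 1381 with weights estimated for each array. In the fit with all arrays, genes of cell division rose over the same interval in livers with intact Rps6. The change differed between genotypes by its own test in 19 probe sets. Some genes that rose, Cdk1 and Pcna among them, did not pass that test. The comparison takes the 5 Cre plus livers collected at 40 h against the 3 Cre plus livers collected at 30 h, which together are 8 of the 32 liver arrays of the study. They were chosen by the time and the transgene in their labels, and no measured value entered the choice. All animals were male C57BL/6 mice aged 3 months and homozygous for a floxed Rps6 allele, a gene copy flanked by sites that Cre recombinase cuts. Cre plus mice also carried the mx-cre transgene, whose interferon-responsive promoter drives the recombinase, and Cre minus mice had the floxed alleles alone. Deletion was induced by injection of polyinosinic-polycytidylic acid, a double-stranded RNA that induces interferon. The sources used here do not state whether Cre minus mice were injected too, how long before surgery the injection took place, or which cells lost the gene. The 4 Cre minus livers at 40 h and the 4 Cre minus livers at 30 h served to ask whether the step differed between genotypes. The labels name no sham-operated mice, so what the loss of tissue did cannot be told apart from what surgery itself or the hour of collection did.

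Ribosomal protein S6 is a component of the small ribosomal subunit and a substrate of growth factor signalling. When part of a rodent liver is removed, the remaining hepatocytes leave quiescence, replicate their DNA and then divide. Genes of DNA replication are switched on ahead of genes of the mitotic spindle and of chromosome segregation. A lack of ribosomal proteins is known in other systems to stabilise p53, whose target Cdkn1a encodes the cell cycle inhibitor p21. Values are RMA signals on the log2 scale, so that a difference of 1 is a change of 2-fold. A step is the 40 h value minus the 30 h value within a genotype, from a limma model of all 8 groups that also has a term for batch. A probe set was called at a Benjamini-Hochberg adjusted p under 0.05 over the 9249 probe sets tested.

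The Rps6 probe set, whose annotation includes the pseudogene Rps6-ps4 and whose place relative to the deleted stretch is not stated, was low in every Cre plus liver. It read 7.57, 7.003, 7.05, 7.23 and 7.22 in the Cre plus livers at 40 h (A to E), against 7.08, 7.08 and 6.51 in the Cre plus livers at 30 h (A to C). The Cre minus livers read 11.34, 11.48, 11.23 and 11.36 at 40 h, against 11.51, 11.62, 11.43 and 11.33 at 30 h. The genotypes did not overlap, and the times within a genotype did. The step in Cre plus livers was 0.26 (95% interval −0.06 to 0.59, limma adjusted p = 0.89). The albumin gene Alb, which marks hepatocytes, read between 13.35 and 13.83 in all 8 Cre plus livers.

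The 8 Cre plus livers did not fall into 2 sets by time. Arrays are compared by Pearson's r over the probe sets tested, as a description. Liver D of 40 h correlated at 0.988 and 0.989 with livers C and B of 30 h, and at 0.937 to 0.948 with the other 4 livers of its own time. Liver A of 30 h correlated at 0.944 and 0.955 with livers C and B of its own time, and at 0.970 to 0.977 with livers A, B, C and E of 40 h. Thus 1 liver of each time lay nearer to the other time than to its own. The files do not settle whether these 2 arrays carry the right time, and each Cre plus step rests on the labels as given. Liver D of 40 h and livers B and C of 30 h were in batch PHX2, and liver A of 30 h was the only 30 h Cre plus array in PHX3. Liver E of 40 h was also in PHX2, and it correlated at 0.946 to 0.956 with livers B, C and D of the same batch. Liver C of the Cre minus mice at 30 h, also in PHX2, correlated at 0.973 to 0.982 with these 3 Cre plus livers and at 0.939 to 0.948 with its own group. With Cre plus arrays of 20 h, the 3 livers reached 0.9892 (B of 30 h), 0.9906 (C of 30 h) and 0.9857 (D of 40 h). The likeness among them was therefore not confined to the 30 h label. The difference between the 3′ and 5′ control probe sets of Actb, a measure of RNA quality, was 0.86 in liver D and 0.85 to 1.25 over all 40 h livers, against 0.81 in liver A and 0.81 to 0.88 over all 30 h livers. Results are given with liver A of 30 h and liver D of 40 h and, where they change, without them.

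**Figure D1:**
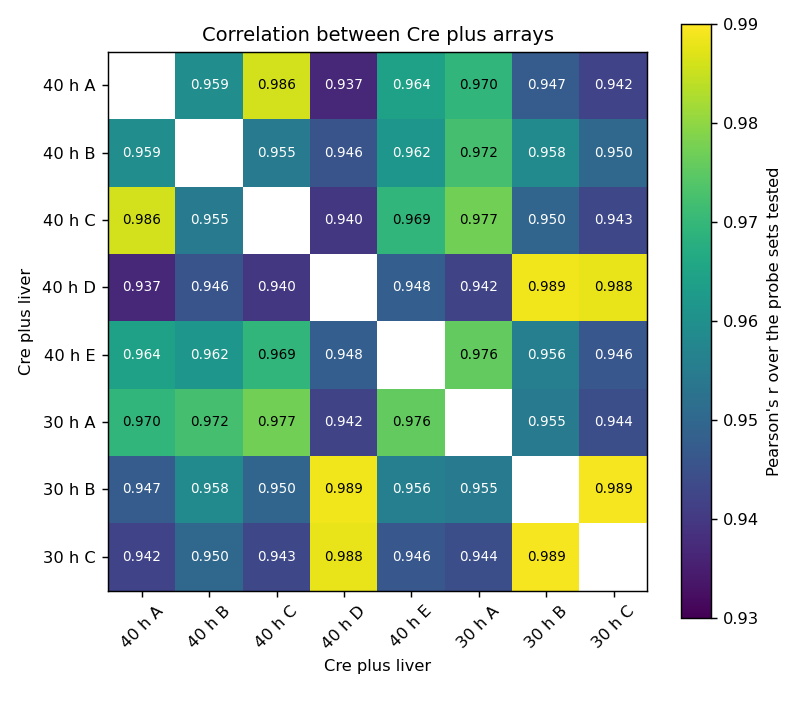
Pearson's r between the arrays of the 8 Cre plus livers (rows and columns, 40 h livers A to E and then 30 h livers A to C), over the 9249 probe sets tested. Liver D of 40 h reaches 0.988 and 0.989 with livers C and B of 30 h and stays between 0.937 and 0.948 with the livers of its own time.

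In the fit with all arrays, 0 of 9249 probe sets (0%) were called for the step in Cre plus livers. By unadjusted p under 0.05 the limma fit gave 274 probe sets higher at 40 h (2.96%) and 206 lower (2.23%), 480 in all, against 462.45 for 5% of those tested. The values of the 40 h and 30 h livers did not overlap in 140 probe sets (1.51%), 62 of them higher and 78 lower at 40 h. The lowest adjusted p was 0.601. The median standard error (SE) of the step was 0.13, and the median 95% interval, not adjusted for the number of tests, reached 0.26 to either side of the estimate. A change of a typical probe set within that range was not detectable. A call at the adjusted threshold needed a larger one, so changes beyond 0.26 are not excluded either. In the same fit, the step in Cre minus livers was called for 88 probe sets higher at 40 h (0.951%) and 6 lower (0.0649%), with a median SE of 0.12. Both SEs rest on 1 variance per probe set shared by all groups, while the median SD within groups was 0.22 and 0.19 in Cre plus livers at 40 and 30 h, against 0.16 and 0.19 in Cre minus livers at these times.

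Without liver A of 30 h and liver D of 40 h together, 434 probe sets were called in Cre plus livers, 291 higher and 143 lower at 40 h. These are the livers least like their own groups, and leaving them out leaves 4 livers against 2. Without liver D alone 5 probe sets were called. They were Npc1, which encodes a lysosomal cholesterol transporter, at 1.04, and Mx2, an interferon-induced GTPase, at −1.43, Ddit4, an inhibitor of mTORC1 signalling, at −1.53, Numb at −0.88 and Tnfrsf1b at −1.29 (limma adjusted p between 0.0227 and 0.0481; Mx2 and Ddit4 were named after their values were seen). Without liver A alone none was called, with 992 probe sets at an unadjusted p under 0.05. Weights that limma estimates for each array gave 1381 calls, 812 higher and 569 lower. Within PHX2, with livers D and E against B and C, 1 unnamed probe set was called, and within PHX3, with livers A, B and C against liver A, none. The count of calls for the step therefore depends on how these 2 livers are treated.

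The 6 genes with the lowest unadjusted p in each direction, among those with the same sign in both batches, are named here without having passed the adjusted threshold. Tnfrsf1b, which encodes tumour necrosis factor receptor 2, read 6.44, 5.95, 6.29, 7.17 and 6.46 at 40 h, against 7.27, 7.66 and 7.94 at 30 h. All 5 later livers lay below all 3 earlier ones, and liver D was the highest of the later livers. Its step was −1.11 (95% interval −1.59 to −0.63, unadjusted p = 6.5e-05, limma adjusted p = 0.601). In Cre minus livers it was −0.65 (adjusted p = 0.309), and the difference between genotypes was not called (adjusted p = 0.902). Rgs2, a regulator of G protein signalling, read 3.79, 3.90, 3.83, 4.30 and 3.43 at 40 h, against 4.40, 5.83 and 4.72 at 30 h. The groups did not overlap, the 30 h livers were spread over more than 1 unit, and the step was −1.06 (adjusted p = 0.786). Oca2, a gene of melanosome pH, did not overlap either, with a step of −0.31. The other lower values were Numb, an inhibitor of Notch signalling, at −0.73, Antkmt, an adenine nucleotide translocase lysine methyltransferase, at −0.39 and 1700017B05Rik at −1.12.

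Npc1 had the largest positive value of this set. It read 8.78, 9.57, 8.79, 7.73 and 9.36 at 40 h, against 8.66, 7.55 and 7.73 at 30 h. Liver D lay with livers B and C of 30 h, and liver A of 30 h lay near the later livers. Its step was 0.77 (95% interval 0.29 to 1.25, limma adjusted p = 0.89), and −0.14 in Cre minus livers. Csnk1d, casein kinase 1 delta, read 4.73, 4.59, 4.60, 4.55 and 4.75 at 40 h, against 4.39, 4.26 and 4.07 at 30 h, with no overlap and a step of 0.41. Fkbp9, an endoplasmic reticulum prolyl isomerase, was at 0.51, Cldn5, an endothelial tight junction protein, at 0.45, Timm10b, a mitochondrial import protein, at 0.36 and Frmd8 at 0.23. Of these 12 genes, 10 were called without liver A of 30 h and liver D of 40 h, and 12 with array weights. Over all 9249 probe sets these settings called 434 and 1381. The 12 were picked by their p on the same arrays, so their counts are a description and no support. None of the 12 was called for a difference between genotypes.

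The step differed between genotypes for 19 of 9249 probe sets. In 18 probe sets (0.195%) the Cre plus step was lower than the Cre minus step, and in 1 (0.0108%) it was higher. Of the 18, 10 belong to the list of mitosis genes, of which 31 were tested, and 2 to that of DNA replication, of which 41 were tested, against 16 of all 6786 genes tested that had a lower called step. Their steps in Cre plus livers lay between −0.22 and 0.06, with a median of −0.08, and in Cre minus livers between 0.54 and 1.85, with a median of 0.97. These values restate what the call selected. The filter asked for 3 arrays of any group, so a probe set low in all Cre plus livers could enter through the Cre minus livers. For such a probe set, a step near 0 in Cre plus livers may reflect a low signal. All 19 were also called in the Cre minus step, which uses the same Cre minus arrays. Over all probe sets, 513 had an unadjusted p under 0.05 for this difference. A fit of only the arrays of these 4 groups gave 325 such probe sets and called 1 (Cdca3).

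**Figure D2:**
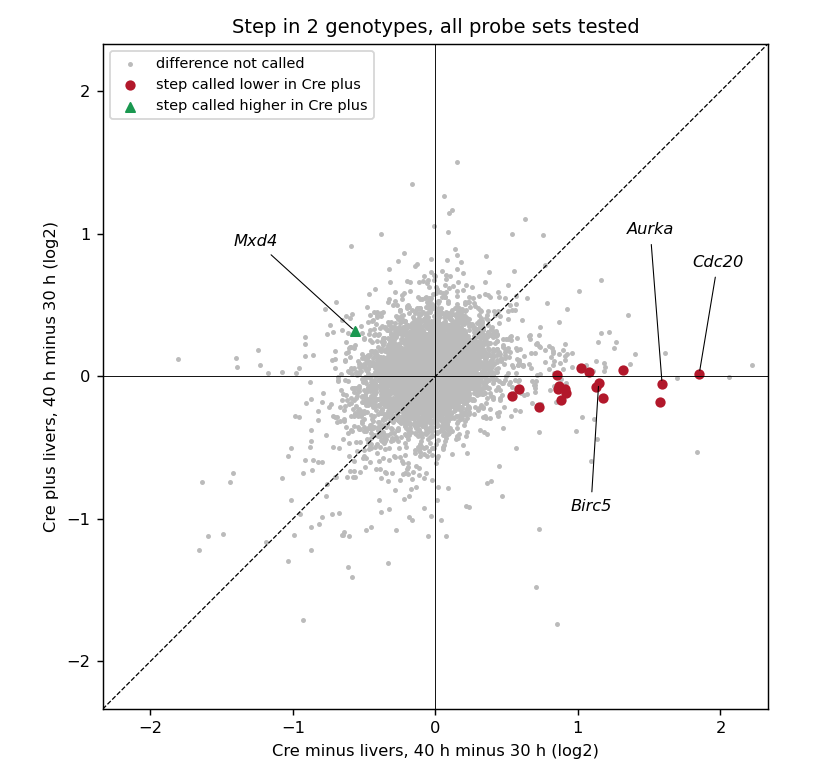
Each point is 1 of the 9249 probe sets tested, with the step in Cre plus livers (40 h minus 30 h, log2) on the vertical axis and the step in Cre minus livers on the horizontal axis, and the dashed line marks equal steps. The 18 probe sets with a lower step in Cre plus livers lie to the right and close to a Cre plus step of 0, and Mxd4 lies to the upper left.

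Cdc20, the activator of the anaphase-promoting complex, had the largest of these differences. It read 6.52, 6.44, 6.55, 6.28 and 6.06 in Cre plus livers at 40 h, against 6.402, 6.18 and 6.43 in Cre plus livers at 30 h. In Cre minus livers it read 8.83, 9.02, 8.77 and 7.83 at 40 h, against 6.88, 6.69, 6.22 and 7.18 at 30 h. The Cre plus groups overlapped, and every Cre minus liver at 40 h lay above all the other livers. The step was 0.02 in Cre plus livers (95% interval −0.39 to 0.42, at most 1.34-fold up) and 1.85 in Cre minus livers (SE 0.19, 3.61-fold, limma adjusted p = 1.84e-06). The difference was −1.83 (95% interval −2.39 to −1.27, limma adjusted p = 0.00149).

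Aurka, the kinase Aurora A of the spindle poles, read 4.04, 3.97, 4.15, 3.85 and 4.25 in Cre plus livers at 40 h, against 4.16, 4.13 and 3.96 in Cre plus livers at 30 h. In Cre minus livers it read 6.33, 6.75, 6.17 and 5.52 at 40 h, against 4.97, 4.42, 4.05 and 4.87 at 30 h. The Cre plus livers of both times shared a narrow range of low signals, and the difference of steps was −1.64 (adjusted p = 0.00336). The medians of these 8 arrays were higher, at 5.88 to 5.96. Tnnt3, a gene of skeletal muscle, read 3.94 to 4.12 in livers B, C, D and E of 40 h. A signal this low may hide a change in Cre plus livers. Birc5, survivin of the chromosomal passenger complex, had a step of −0.04 in Cre plus livers, against 1.15 in Cre minus livers (difference −1.19, adjusted p = 0.00149). Mad2l1, a spindle checkpoint protein, had steps of 0.04 and 1.32 in the same order (difference −1.27, adjusted p = 0.015). Ccnb2, a mitotic cyclin, had −0.07 in Cre plus livers, against 1.13 in Cre minus livers (difference −1.20, adjusted p = 0.0451). Kif20a, a kinesin of the central spindle, had −0.15 in Cre plus livers, against 1.18 in Cre minus livers (difference −1.33, adjusted p = 0.0271).

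The lowest adjusted p belonged to Cdca3, which promotes mitotic entry. It read 5.20, 5.19, 5.30, 5.23 and 5.23 in Cre plus livers at 40 h, against 5.24, 5.27 and 5.17 in Cre plus livers at 30 h. In Cre minus livers it read 6.12, 6.29, 6.11 and 6.05 at 40 h, against 5.33, 5.18, 5.26 and 5.403 at 30 h. The 8 Cre plus livers lay between 5.17 and 5.30, well below every Cre minus liver at 40 h, and the difference was −0.84 (SE 0.11, limma adjusted p = 1.66e-04). The other mitotic genes called were Cenpa, the centromeric histone, Nek2, a centrosome kinase, Ncaph, a condensin subunit, Anln, an actin-binding protein of cytokinesis, Cdca8, borealin of the chromosomal passenger complex, and Kif11, the kinesin that separates spindle poles. Genes of S phase were Cdc45, part of the replicative helicase, Dtl, an adaptor for ubiquitin ligation on chromatin, and Uhrf1, which recruits the maintenance DNA methyltransferase. Selenoh, a nucleolar selenoprotein, and an unnamed probe set completed the 18. Cenpa, Nek2, Cdc45, Dtl, Ncaph, Selenoh, Anln, Cdca8, Kif11 and Uhrf1 had Cre plus steps between −0.22 and 0.06 and differences between −1.05 and −0.67.

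**Figure D3:**
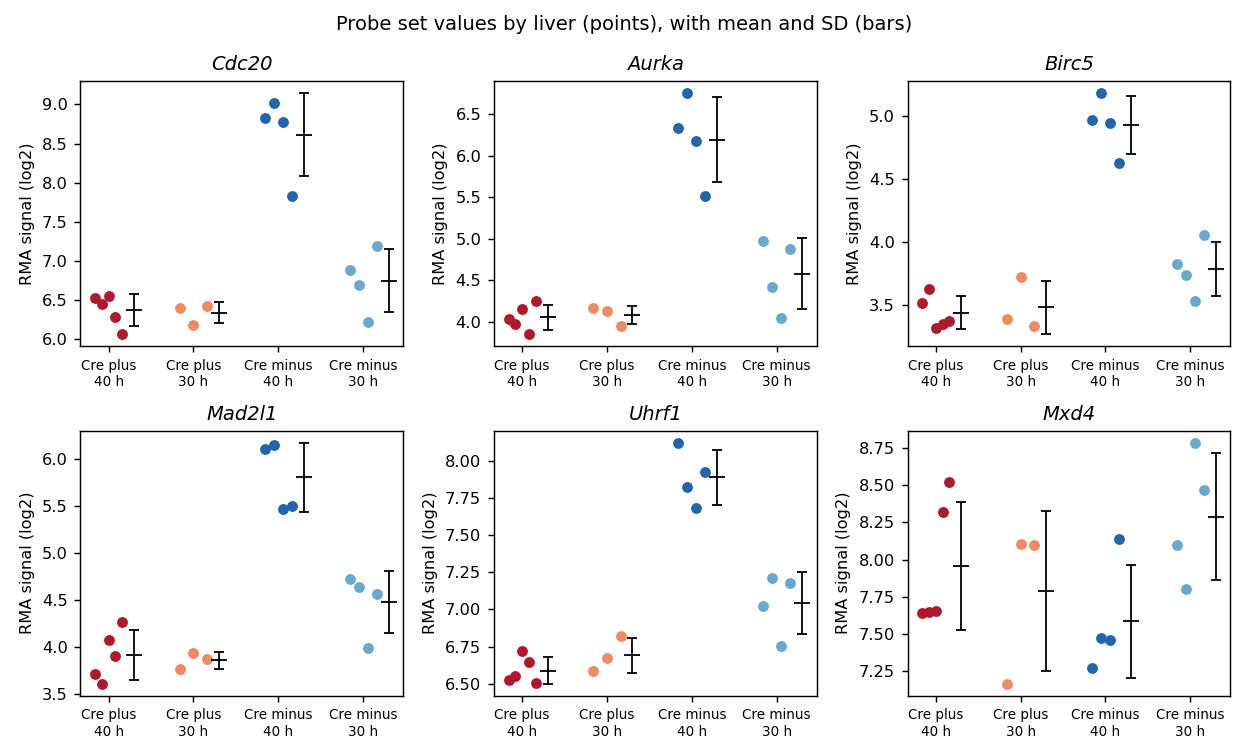
RMA signal (log2) of 6 genes in each liver (points) with the mean and SD of the group (bars), in Cre plus livers at 40 h and 30 h and in Cre minus livers at 40 h and 30 h. In the 5 genes of cell division the Cre minus livers at 40 h stand above the rest, and Mxd4 shows 7.64 to 8.52 in Cre plus livers at 40 h against 7.17 to 8.11 at 30 h.

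Promoter windows are shown for the 4 called genes with the largest differences among those that have a window. Kif20a (−1.33) has no window and is left out. Mitotic promoters are known to carry a CHR element (TTTGAA) and CCAAT boxes, which is why windows are shown. Each window has 300 bases, most of them upstream of the annotated start, in GRCm38.p6, read 5′ to 3′ on the gene's strand, with TTTGAA and CCAAT in capitals on either strand. They are Cdc20 at chr4:118437294-118437593 (minus strand), Aurka at chr2:172370521-172370820 (minus strand), Mad2l1 at chr6:66534971-66535270 (plus strand) and Ccnb2 at chr9:70421505-70421804 (minus strand).
Cdc20: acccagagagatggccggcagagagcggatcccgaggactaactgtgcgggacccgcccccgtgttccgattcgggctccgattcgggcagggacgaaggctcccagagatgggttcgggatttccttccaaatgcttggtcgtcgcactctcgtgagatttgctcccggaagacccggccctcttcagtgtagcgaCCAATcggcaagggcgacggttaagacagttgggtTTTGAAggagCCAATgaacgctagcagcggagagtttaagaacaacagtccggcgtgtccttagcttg
Aurka: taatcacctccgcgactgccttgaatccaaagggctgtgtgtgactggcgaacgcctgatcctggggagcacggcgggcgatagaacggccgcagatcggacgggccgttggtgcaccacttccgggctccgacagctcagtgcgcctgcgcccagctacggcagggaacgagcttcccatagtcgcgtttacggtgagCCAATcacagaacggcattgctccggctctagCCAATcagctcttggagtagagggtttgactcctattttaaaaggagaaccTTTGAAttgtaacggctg
Mad2l1: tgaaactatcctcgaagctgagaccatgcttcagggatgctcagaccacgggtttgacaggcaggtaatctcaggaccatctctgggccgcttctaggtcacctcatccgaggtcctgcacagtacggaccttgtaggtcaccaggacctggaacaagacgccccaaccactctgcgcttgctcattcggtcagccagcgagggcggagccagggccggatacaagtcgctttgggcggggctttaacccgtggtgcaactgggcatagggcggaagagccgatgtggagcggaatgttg
Ccnb2: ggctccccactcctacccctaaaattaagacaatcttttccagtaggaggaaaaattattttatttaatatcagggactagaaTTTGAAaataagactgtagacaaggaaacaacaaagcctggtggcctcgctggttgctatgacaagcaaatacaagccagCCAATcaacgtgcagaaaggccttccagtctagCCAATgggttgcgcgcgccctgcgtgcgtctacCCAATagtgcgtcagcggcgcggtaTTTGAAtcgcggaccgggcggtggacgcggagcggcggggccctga
The Cdc20 and Aurka windows held TTTGAA once, the Ccnb2 window held it at 2 places, and neither motif was found in the Mad2l1 window. Of the 18 probe sets, 17 named a gene, and 16 of these genes had windows, 17 windows in all. TTTGAA, or TTCAAA on the other strand, was in 10 of these 17 windows (58.8%) and in 17.9% of all 32851 windows. CCAAT, or ATTGG, was in 13 of 17 (76.5%) and in 37.4% of all windows. The motifs were chosen after the values were seen, neither motif contains the other, and a match is a description of the letters only.

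Mxd4 encodes a repressor that competes with Myc for its partner Max. In the fit with all arrays, it was the only probe set called for a higher step in Cre plus livers. It read 7.64, 7.65, 7.66, 8.32 and 8.52 in Cre plus livers at 40 h, against 7.17, 8.11 and 8.10 in Cre plus livers at 30 h. In Cre minus livers it read 7.27, 7.47, 7.46 and 8.14 at 40 h, against 8.10, 7.80, 8.78 and 8.47 at 30 h. Within each group the PHX2 livers were the higher ones, and both pairs of groups overlapped. The step was 0.32 in Cre plus livers and −0.56 in Cre minus livers (difference 0.88, SE 0.18, limma adjusted p = 0.0271), with a difference of 0.81 within PHX2 and 1.03 within PHX3. Hsd17b2, a steroid dehydrogenase, and Pcx, pyruvate carboxylase, came next at 1.10 and 0.81 without passing (adjusted p = 0.0813 and 0.0953).

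With only the 16 arrays of the 4 groups compared, 1 probe set (Cdca3) was called in place of 19. The fit over all arrays shares its variance with the 0 h livers, whose mean r with their own group was 0.989 to 0.991. In the 4 groups compared it was 0.943 to 0.986. The count of 19 also moved with single livers. It was 7 without Cre minus liver C of 30 h, 8 without Cre plus liver B or C of 30 h, 9 without Cre minus liver A or B of 40 h, 12 without Cre plus liver A or B of 40 h, 34 without Cre minus liver D of 30 h and 52 without Cre minus liver D of 40 h. The difference kept its sign in all 19 probe sets in every alternative fit that tested them. These fits reuse arrays that selected the 19, so the kept signs are a description and no support. Without liver A of 30 h and liver D of 40 h the count was 100, including 18 of the 19.

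Genes of mitosis and of DNA replication are described by their medians, since no probe set at all was called in the Cre plus step. Of 31 mitosis genes tested, none was called in the Cre plus step, 15 had a positive step and the median was −0.003, with a range of −0.44 to 0.30. In Cre minus livers 21 of the 31 rose, with a median of 0.86, against 74 of all 6786 genes tested that rose there and 0 in Cre plus livers. Of 41 DNA replication genes, none was called in Cre plus livers, 31 had a positive step and the median was 0.08, and in Cre minus livers 18 rose, with a median of 0.54. Over all 6786 genes tested the median step was 0.02 for Cre plus and 0.01 for Cre minus livers. Summed over the mitosis genes, the linear signal was 2061 to 2325 in Cre plus livers at 40 h, 2025 to 2376 in Cre plus livers at 30 h, 3851 to 6415 in Cre minus livers at 40 h and 2094 to 3181 in Cre minus livers at 30 h. The arrays measure RNA from whole liver, so fewer cells of a kind and less RNA per cell cannot be told apart. Of the 88 probe sets that rose in Cre minus livers, 54 had a positive step in Cre plus livers, with a median of 0.04 against 0.82 in Cre minus livers. These probe sets were chosen by their rise in Cre minus livers, so their steps there are a description.

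Cell cycle genes of the core set other than those called for a difference are given by their steps. Top2a, the topoisomerase that untangles sister chromatids, read 5.03, 4.85, 5.28, 5.06 and 4.72 at 40 h, against 5.004, 5.05 and 4.56 at 30 h, with a step of 0.10 (95% interval −0.22 to 0.43), and it rose by 0.77 in Cre minus livers (adjusted p = 0.00624). The difference of its steps, −0.66, did not pass (limma adjusted p = 0.546). Cdk1, the mitotic kinase, had a step of 0.17 (95% interval −0.34 to 0.67) against 1.61 in Cre minus livers (adjusted p = 3.08e-04). Ccna2, cyclin A2, had −0.04 against 0.58. Rrm2, the small subunit of ribonucleotide reductase, had −0.01 against 1.69, Pcna, the sliding clamp, 0.04 against 1.10, and Mcm5, part of the replicative helicase, 0.20 against 1.25. Stmn1, a microtubule destabiliser, had −0.003 against 2.06. Cdk1, Ccna2, Rrm2, Pcna, Mcm5 and Stmn1 rose in Cre minus livers, and none of the 6 passed the test of the difference, which was closest for Ccna2 (−0.62, limma adjusted p = 0.05) and Stmn1 (−2.06, adjusted p = 0.0504). The Mki67 probe set had a step of 0.22 in Cre plus livers, against 0.12 in Cre minus livers, neither called.

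**Figure D4:**
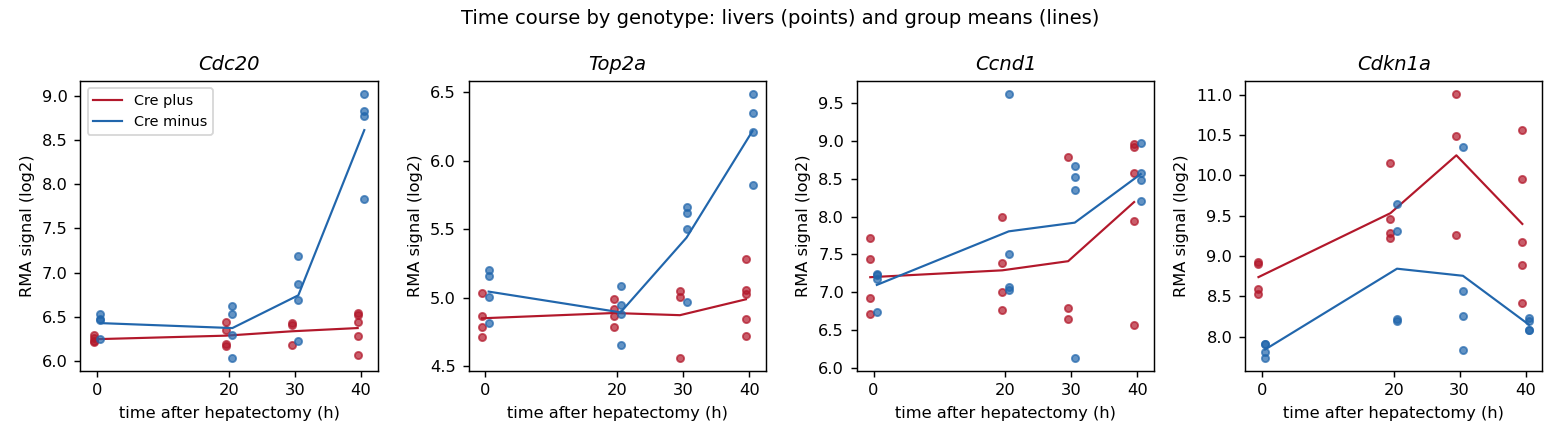
RMA signal (log2) at 0, 20, 30 and 40 h after hepatectomy in Cre plus (red) and Cre minus (blue) livers, with points for livers and lines through group means. Cdc20 averages 6.25, 6.29, 6.34 and 6.37 over the 4 times in Cre plus livers, against 6.43, 6.37, 6.74 and 8.61 in Cre minus livers, while Ccnd1 and Cdkn1a vary widely among livers of the same group.

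The p53 target Cdkn1a and the cyclin gene Ccnd1 spanned more than 2 units among Cre plus livers. Cdkn1a (p21) read 8.41, 9.18, 8.89, 10.56 and 9.95 in Cre plus livers at 40 h, against 9.26, 10.48 and 11.01 in Cre plus livers at 30 h. The livers overlapped, with liver D of 40 h above liver B of 30 h, and the step was −0.65 (95% interval −1.40 to 0.10, limma adjusted p = 0.89). It was −1.19 without liver A of 30 h and liver D of 40 h (adjusted p = 0.103) and −1.17 with array weights, where it was called (adjusted p = 0.0111). Ccnd1, cyclin D1, read 8.58, 7.94, 8.92, 6.57 and 8.96 at 40 h, against 8.79, 6.64 and 6.80 at 30 h. Liver D of 40 h and livers B and C of 30 h were the 3 low ones, and the step was 0.64 (95% interval −0.53 to 1.80). It was 1.71 without the 2 livers (limma adjusted p = 0.111) and 1.49 with array weights, where it was called (adjusted p = 0.022). The other p53 targets Mdm2 and Ccng1 had steps of 0.10 and 0.35, neither called, and of 18 p53 targets 0 were called and 14 had a positive step, with a median of 0.09, or 0.19 without the 2 livers. Without them Mdm2 was at 0.37 and Ccng1 at 0.79, and Ccng1 was called with array weights (0.78, limma adjusted p = 0.0185). Myc had −0.40 (95% interval −1.20 to 0.40), and −1.16 with array weights, where it was called (adjusted p = 0.0201). Without the 2 livers Myc was at −0.59 and was not called (limma adjusted p = 0.543). Ccne1, cyclin E1, did not overlap between times, at 8.05 to 8.19 at 40 h against 8.31 to 8.40 at 30 h, with a step of −0.21 (adjusted p = 0.89).

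As no probe set was called in the Cre plus step, none of the 41 gene lists could hold a called member. The medians of the lists lay between −0.22 and 0.15. Over all genes tested, 3819 of 6786 had a positive step. The lists of cholesterol synthesis, immediate early genes, fatty acid and triglyceride synthesis and the interferon response had the lowest medians. Immediate early genes, which encode transcription factors and phosphatases induced within minutes of a stimulus, had a positive step in 1 of 24 and a median of −0.22, or −0.31 without liver A of 30 h and liver D of 40 h. Among them Btg2 was at −0.93, Dusp1, a MAP kinase phosphatase, at −1.31, Nr4a1 at −0.38 and Zfp36 at −0.53, all with limma adjusted p = 0.89, and these were named after their values were seen, as were the interferon genes that follow. Interferon response genes had a positive step in 6 of 30 and a median of −0.20, with Usp18 at −1.41, Rsad2 at −1.08 and Mx2 at −1.01. Liver A of 30 h had the highest mean of this list. Cholesterol synthesis and uptake genes had a positive step in 2 of 16 and a median of −0.22, or −0.41 without the 2 livers. Fatty acid and triglyceride synthesis genes had a positive step in 3 of 15 and a median of −0.21, or −0.46 without the 2 livers.

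Other lists turned direction between batches. The proteasome median was 0.28 in PHX2 and −0.34 in PHX3. In the same order, heat shock proteins were at 0.28 and −0.13, chaperones of the endoplasmic reticulum at 0.21 and −0.20, and NRF2 targets at 0.14 and −0.40. The PHX3 value rests on 1 liver at 30 h. Without liver A of 30 h and liver D of 40 h, the proteasome median was 0.25, that of heat shock proteins 0.36, that of the chaperones −0.16 and that of NRF2 targets 0.03. Ribosomal proteins other than Rps6 had a positive step in 22 of 28 and a median of 0.15, or 0.33 without liver A of 30 h and liver D of 40 h. Hepatocyte transcription factors had a median of 0.10, or 0.41 without these livers. The 12 lists of cell type markers had medians between −0.11 for hepatocytes and 0.08 for pancreatic acinar cells. Without these livers they lay between −0.24 for Kupffer cells and macrophages (−0.07 with them) and 0.09 for pancreatic acinar cells. Hepatocytes were then at −0.16, erythroid cells at −0.16 (0.03 with them) and endothelial cells at −0.10 (−0.03 with them). Summed Kupffer cell and macrophage markers were 1792 to 2702 in Cre plus livers at 40 h and 1856 to 2631 at 30 h. Clock output genes followed single livers: Dbp read 6.90, 5.20, 6.52, 5.45 and 5.09 at 40 h, against 5.07, 5.07 and 5.41 at 30 h, and only livers A and C were high. Cyp7a1, the rate-limiting enzyme of bile acid synthesis, read 7.54, 5.16, 7.21, 5.57 and 5.07 at 40 h, against 5.05, 5.06 and 5.24 at 30 h, high in the same 2 livers. Their steps, 0.78 and 0.99, were not called, and with array weights they were 2.04 and 1.83 and were called (limma adjusted p = 0.013 and 0.0143). Without liver A of 30 h and liver D of 40 h they were 1.145 and 1.141 and were not called (limma adjusted p = 0.305 and 0.383).

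**Figure D5:**
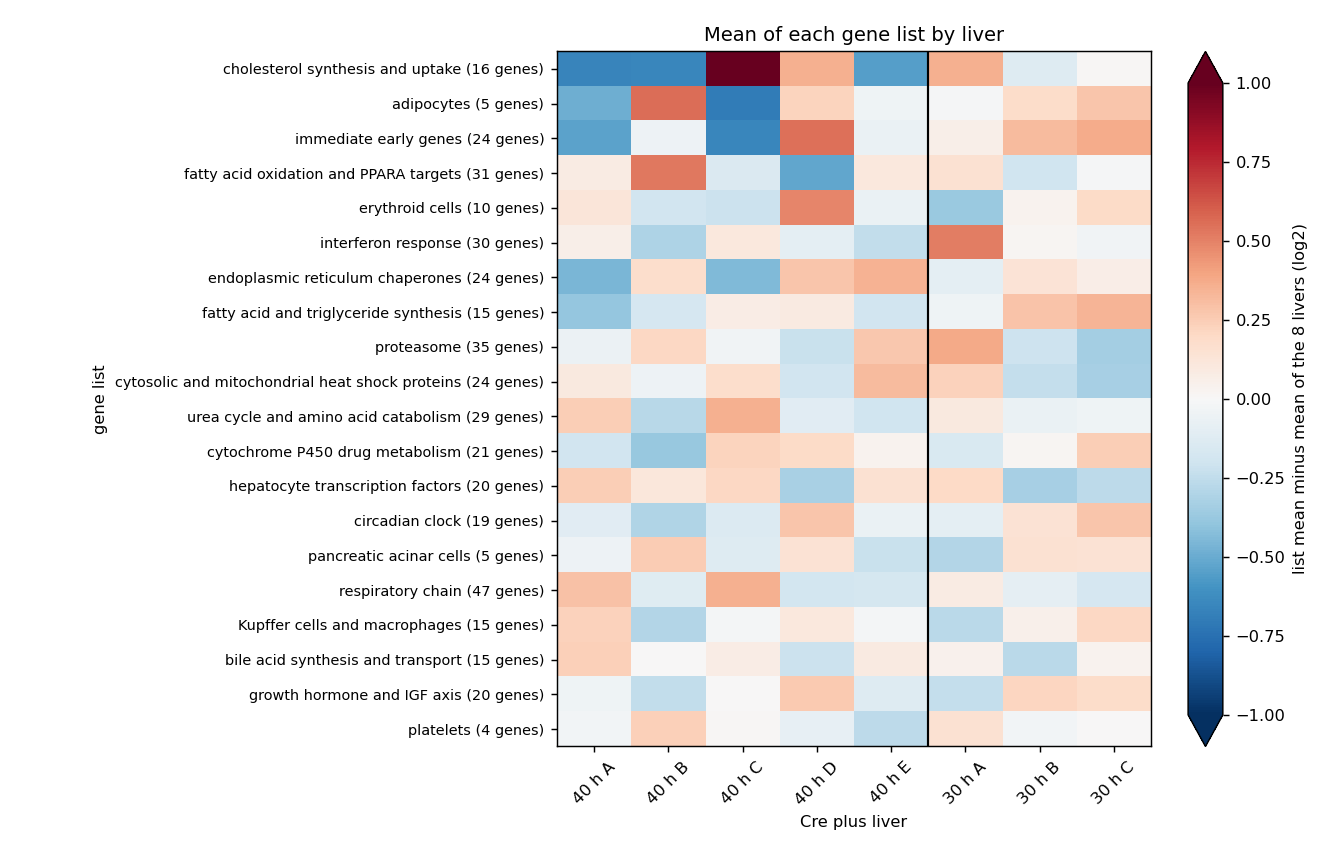
Mean log2 signal of each gene list in each Cre plus liver minus the mean of the 8 livers (colour, saturated beyond 1), for the 20 of 41 lists whose range over the livers was at least 0.5, with 40 h livers A to E left of the line and 30 h livers A to C right of it. The cholesterol list reaches 1.28 in liver C of 40 h, the immediate early list 0.55 in liver D of 40 h and the interferon list 0.51 in liver A of 30 h.

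Some livers stood apart from the rest of their group in many genes. The genes in this paragraph were picked for that, so they are described without a test. At 40 h, liver D lay at least 1 unit above all the other 4 livers in 100 probe sets and below them in 101, whereas livers A, B, C and E did so in 6 to 17 above and 0 to 25 below. At 30 h, liver A lay above both other livers by that much in 238 probe sets and below them in 135. The part of these genes in the step was not tested, and counts without the livers are given with the calls. Denn2b read 6.83, 7.36, 6.94, 10.77 and 7.35 at 40 h, against 6.83, 11.05 and 11.63 at 30 h. Tiparp, an aryl hydrocarbon receptor target, read 4.74, 5.11, 4.61, 8.0 and 4.85 at 40 h, against 5.18, 8.18 and 7.71 at 30 h. Foxa3, a hepatocyte transcription factor, read 7.56, 7.09, 7.90, 4.90 and 7.49 at 40 h, against 7.51, 5.05 and 4.18 at 30 h. G6pc, the catalytic subunit of glucose-6-phosphatase, read 10.64, 9.85, 10.12, 7.31 and 9.47 at 40 h, against 10.53, 7.39 and 7.23 at 30 h. In these 4 genes liver D of 40 h lay with livers B and C of 30 h, and liver A of 30 h lay with the other 40 h livers. Cre minus liver C of 30 h also lay with or near the first set in Denn2b, Tiparp and G6pc. It read 10.96 for Denn2b against 7.07 to 7.37 in its own group, 7.77 for Tiparp against 4.47 to 5.06, and 7.60 for G6pc against 10.34 to 10.82. For Foxa3 it read 6.04, between 4.18 to 5.05 in the first set and 7.07 to 8.15 in its own group. Cre plus liver C of 20 h, from PHX2 as well, read 10.51 for Denn2b, 7.77 for Tiparp, 4.78 for Foxa3 and 7.99 for G6pc.

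Ccl2 was high in liver D of 40 h alone among the Cre plus livers of these times. This gene of a monocyte chemoattractant read 4.93, 5.48, 5.0, 8.88 and 5.94 at 40 h, against 6.2, 6.14 and 4.88 at 30 h. Liver C of 40 h stood apart in cholesterol synthesis: Idi1, isopentenyl diphosphate isomerase, read 7.58, 6.91, 10.59, 7.35 and 6.98 at 40 h, against 9.35, 6.94 and 7.16 at 30 h. Hmgcs1, HMG-CoA synthase, was likewise highest there at 8.95, with 8.08 in liver A of 30 h. Liver B of 40 h had the highest Lepr, the leptin receptor gene, at 7.0 against 3.70 to 4.97 in the other 40 h livers. Liver A of 30 h had the highest Ifit1, an interferon-induced gene, at 7.58 against 4.86 and 5.24 in the other 30 h livers.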

How the data were processed

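Liver RNA was hybridised to 1-colour Affymetrix arrays, and the deposited table holds log2 signals. RMA is the tool named in the submitters' processing notes, and the sources used here do not state whether PHX2 and PHX3 were normalized together. Of 12422 probe sets other than 66 controls, 9249 were tested, those that exceeded the 30th percentile of the array on 3 or more arrays. Steps and their difference came from limma 3.58.1 (R 4.3.3; lmFit, then eBayes; 2-sided) over all 32 arrays with 8 groups and the batch, and the fit was tested on simulated data. Of the 41 lists' 1247 entries 866 were tested, a gene with several probe sets being read from the brightest. Genes named were the called genes with the same sign in both batches, filled to 6 per direction for the step and 3 for the difference by the lowest unadjusted p, every other called difference, and core genes. Of the core genes, Per2 lay under the filter, Bmal1 had no probe set of its own, and 1 is not reported here. The comparison, lists and rules were chosen with earlier results of these data known. Alternatives were other batch terms, filters, normalizations, array weights, a replicate block and fits without single livers. The labels do not say that each liver came from its own mouse, so p-values cover only variation among these samples, which may be technical, and the number of arrays limits the precision. Replicate letters were not taken to pair the livers, since not every pair correlated above 0.1. Deviations of livers with the same letter at 40 and 30 h correlated at −0.012, 0.042 and −0.074 in Cre plus mice (A to C) and at −0.046, 0.207, 0.119 and 0.324 in Cre minus mice (A to D). No pair of the 16 arrays of these 4 groups correlated above 0.9955, so none was counted as a duplicate.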

Additional observations from a re-analysis of the deposited data

Results flagged for a closer look

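The difference of steps between the genotypes passed its own test in 19 probe sets. It was 0.88 for Mxd4, and among the 18 lower ones −1.83 for Cdc20, −1.75 for the unnamed probe set, −1.64 for Aurka, −1.33 for Kif20a, −1.27 for Mad2l1, −1.20 for Ccnb2, −1.19 for Birc5, −1.05 for Nek2, −1.05 for Cdca8, −1.03 for Dtl, −1.0 for Anln, −0.96 for Selenoh, −0.95 for Uhrf1, −0.94 for Kif11, −0.93 for Ncaph, −0.84 for Cdca3, −0.68 for Cdc45 and −0.67 for Cenpa.

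In 10 of 218 groups of 4 or 5 values examined (4.59%), 1 liver lay far from the others by Dixon's ratio, and chance flags about 1 in 20. Among Cre plus livers at 40 h, liver D had Pcx at 8.29 against 8.97 to 9.10 in the others, Anln at 4.53 against 3.70 to 3.92, and a mean of the hepatocyte transcription factors of 7.18 against 7.61 to 7.75. Liver E had Cdk1 at 5.75 against 6.17 to 6.31, and liver A had Alb at 13.4 against 13.7 to 13.8. Among Cre minus livers at 30 h, liver C had Ccnd1 at 6.14 against 8.35 to 8.66, Eif5 at 9.61 against 8.06 to 8.31 and Rgs2 at 5.22 against 3.69 to 3.94. Among Cre minus livers at 40 h, liver D had Kif20a at 4.30 against 5.39 to 5.59, and liver C had Rgs2 at 3.92 against 3.58 to 3.61.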

How the results depend on the processing

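The number of probe sets called in the Cre plus step was 0 in the fit reported. It was 0 as well with only the arrays compared, without the batch term, with the batch as a random block, within PHX3, without the filter, with the 50th percentile filter, after quantile normalization or median centring, with a trended robust prior and with the replicate block. It was 1 within PHX2 (an unnamed probe set, 3.55), 1381 with array weights, 434 without liver A of 30 h and liver D of 40 h, and 812 without these and Cre minus liver C of 30 h, an alternative added after the data were seen. Leaving out single livers gave 0 to 5. The 19 calls for the difference became 1 with only the arrays compared (Cdca3), 1 within PHX2 (that unnamed probe set), 2 within PHX3 (Cdc20 and the unnamed one of the 19), 7 with the 50th percentile filter, 30 after quantile normalization, 1106 with array weights, 100 without the 2 livers, 353 without the 3, and 7 to 52 without single livers. Calls with a higher step in Cre plus livers outnumbered lower ones with array weights (733 and 373), without the 2 livers (59 and 41) and without the 3 (233 and 120). No direction of the 19 turned in any alternative that tested them, which reuses arrays that selected them and is a description. The largest adjusted p over the alternatives was 0.998 or 0.999 for each of the 19, in a fit within a single batch. Mxd4 lost its call in 13 of 30 alternatives and Cdc20 in 2 of 30. Anln lost its call in 18 of 29, Ccnb2 and Selenoh in 17 of 30, Cdc45 in 15 of 30, Ncaph in 15 of 29 and Nek2 in 14 of 30. The remaining probe sets lost theirs in 2 to 13 alternatives. With the replicate block, whose letters correlated in 3 of 4 Cre minus pairs (0.119 to 0.324) and in no Cre plus pair above 0.042, and which absorbs the 1 array of letter E, the step gave 0 calls and the difference 9. The causes were not tested.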

Other observations

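Liver A of the Cre plus mice at 40 h carried genes of skeletal muscle, picked here because they stood apart and without a test. Acta1, skeletal muscle actin, read 10.14 there and 4.28 to 4.58 in the other 40 h livers, against 4.24 to 4.89 in the Cre plus livers at 30 h. Tnnt3, a fast skeletal troponin, read 7.85 there and 3.94 to 4.12 in the other 40 h livers, and Myl1, a myosin light chain, read 9.22 and 5.81 to 6.01. Among the other 31 arrays, the highest Acta1 value was 8.59, in Cre plus liver D of 20 h, and Cre minus liver D of 20 h read 7.63. The part of these genes in the step was not tested, and the count of calls without this liver was 0.

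The 2 probe sets of Pdxdc1 moved in opposite directions in liver E of the Cre plus mice at 40 h. The first probe set read 7.71 in that liver and 6.69 in liver C, against 4.56 to 4.81 in the Cre plus livers at 30 h, while the other read 5.69 and 6.91 in the same livers, against 6.92 to 7.09 at 30 h. No other of the 32 arrays read above 6.69 for the first probe set.

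Clock list promoters held CACGTG in 6 of 26 windows (23.1%), against 7.15% of all windows, TTATGTAA in 2 of 26 (7.69%), against 0.938%, and AGGTCA in 4 of 26 (15.4%), against 16.3%. TTATGTAA and AGGTCA were also counted as their reverse complements TTACATAA and TGACCT. No clock gene was called in the Cre plus step, so none of these windows is shown.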
